A study of Mus musculus with 18 samples.

Results

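The 10 genes described here, Egr1, Egr2, Egr3, Fos, Fosb, Jun, Junb, Ier2, Dusp1 and Atf3, are classical immediate early genes, chosen by symbol out of the 55450 genes of the expression table. Egr1 was picked for its rise in the Dicer hotspot mutant line, so its own HM values are a description with no test. The other 9 genes were listed with it as immediate early genes. The mRNA of P19, an embryonic carcinoma line of mouse origin grown with serum, was sequenced in 3 genotypes with 6 samples each. WT cells are Dicer (+/+). HetKO cells are Dicer (+/-), with a truncating CRISPR mutation on a single allele. HM cells are Dicer (HM/-), made from the HetKO clone by adding the RNase IIIb hotspot change E1797G to the remaining allele, so the truncated allele is shared by HetKO and HM. Each edited genotype is a single clonal line, so the mutation and the cloning cannot be told apart. No source used here says that the 6 samples of a line were separate cultures, so the p-values measure the spread between these samples, which may be technical.

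Immediate early genes are transcribed within minutes of a growth factor or stress signal and need no new protein for it. In the best known route, the Ras-RAF-MEK-ERK cascade phosphorylates ternary complex factors bound beside SRF at serum response elements, whose core is the CArG box, while CREB and its relatives act at cyclic AMP response elements. The products are mostly transcription factors: zinc finger proteins of the EGR family, the FOS and JUN proteins that pair to form AP-1, and ATF3, which is also a target of the integrated stress response. Their mRNAs are short lived, often through AU-rich elements in the 3′ UTR, and DUSP1, SPRY and NAB proteins feed back on the cascade or on EGR proteins. RNase IIIb of Dicer releases the 5p strand of a miRNA precursor, and hotspot mutations in it leave cells with few 5p miRNAs.

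All values are TPM, transcript abundances that are scaled for transcript length and to a fixed total and so keep no sequencing depth. Tests were limma fits on log2(TPM + 1) over every gene averaging 1 TPM or more in the 12 samples compared, with Benjamini-Hochberg adjustment, and a gene was called at an adjusted p under 0.05. For low genes a fold change on the log2(TPM + 1) scale is smaller than that of the TPM values. In bulk RNA, more cells expressing a gene and more of its RNA per cell cannot be told apart.

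Over 683 highly expressed genes, the 6 samples of each line were matched into the 3 near-alike pairs with the smallest summed difference. This rule gives 3 pairs whatever the data. The pairs were WT 1 and 4, 2 and 5, 3 and 6, the same numbers in HetKO, and HM 1 and 4, 2 and 3, 5 and 6. The robust SD of log2 differences within pairs was 0.0510 to 0.0696 in HetKO, against 0.164 to 0.358 for the other sample pairs. In HM it was 0.0595 to 0.1055, against 0.168 to 0.279, so samples of these 2 lines did not vary independently. In WT it was 0.0493 to 0.0746, against 0.0731 to 0.205, so the WT pairs did not stand clear of the others. Pair means lay further apart than any pair for 2 of 10 members in WT, 6 in HetKO and 7 in HM. Values from fits on the 3 pair means per line are therefore given where they change the call of a member or the count of a list. The edited gene itself, Dicer1, was at 49.2 to 54.8 TPM in WT, 42.9 to 53.8 in HetKO and 35.4 to 44.2 in HM. Every HM sample was below every WT sample, and HetKO overlapped both. This is a level of the whole gene that does not separate the alleles, so by itself it does not check the labels. Of the embryonal carcinoma markers, Pou5f1 (1814 to 2244 TPM) and Sox2 (95.4 to 176.7 TPM) were high in every sample, whereas in HM Nanog was at 12.5 to 26.6 TPM, against 26.4 to 62.4 in WT, and Sall4 at 0.63 to 13.5 TPM, against 20.2 to 27.9. HetKO libraries had fewer genes above 0 (19628 to 20795) than WT (21341 to 21899) or HM (21013 to 21996), and their record titles are written in another form; whether they were prepared with the other libraries is not given in the sources used here, so any such batch and the genotype cannot be told apart.

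EGR1 is a zinc finger activator that is induced by serum, growth factors and many stresses (Egr1, ENSMUSG00000038418.7, chromosome 18, 34859823 to 34864984 on the plus strand of GRCm38). In WT cells Egr1 ranged from 3.00 to 5.05 TPM with a median of 3.68. In HM cells the lowest value was 12.4, the median 21.6 and the highest 26.7 TPM. Every HM sample was above every WT and every HetKO sample. The mean was 3.96 ± 0.875 TPM in WT and 21.3 ± 5.23 TPM in HM (SD, n = 6 each), a ratio of 5.38 and a log2 difference of 2.15 with a standard error of 0.172. Against HetKO the ratio was 3.96 and the log2 difference 2.07 with a standard error of 0.402. It was 1.52 without HetKO 3 and 6 and 2.68 without HetKO 2 and 5. These HM values are the ones Egr1 was chosen by and carry no test.

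The HetKO samples did not form a single Egr1 level. HetKO 2 and 5 were at 11.7 and 10.2 TPM, which is 2.96 and 2.57 times the WT mean. HetKO 1 and 4 were at 3.75 and 3.85 TPM, within the WT range. HetKO 3 and 6 were at 1.34 and 1.46 TPM, below every WT sample. The 3 levels followed the 3 pairs of near-alike samples: the pair means spanned 2.31 on the log2 scale and the largest difference inside a HetKO pair was 0.185. The mean log2 difference between HetKO and WT was 0.08 (95% interval -0.77 to 0.92, adjusted p = 0.920 in limma), and without HetKO 2 and 5 it was -0.53 with an adjusted p of 0.220.

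**Figure D1:**
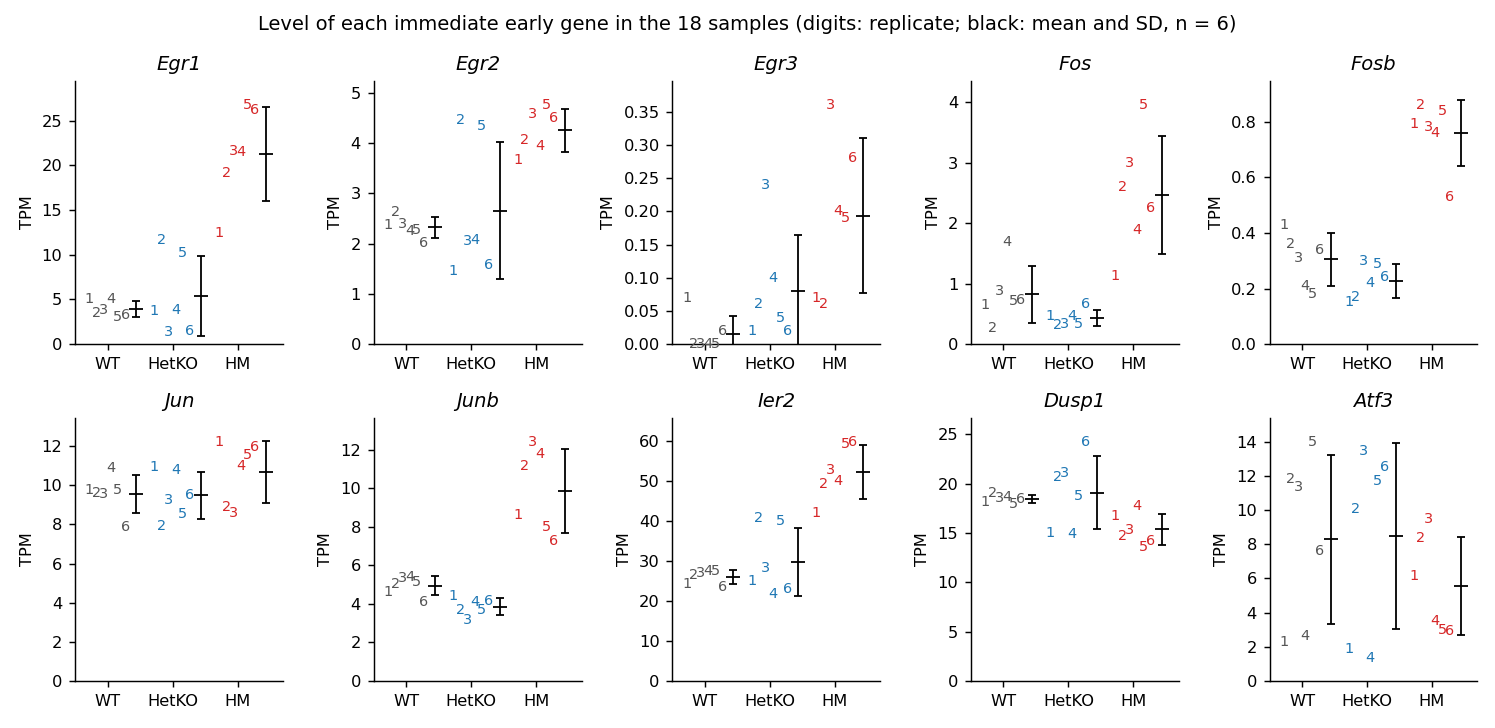
TPM of the 10 immediate early genes (vertical axis from 0, a scale per gene) in the 6 samples of WT, HetKO and HM, each drawn as its replicate number, with the mean and SD in black. Egr1 lay at 12.4 to 26.7 TPM in HM and at 3.00 to 5.05 TPM in WT, and HetKO 2 and 5 stood above the other HetKO samples for Egr1, Egr2 and Ier2.

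EGR2 shares the DNA-binding zinc fingers of EGR1 and is best known from hindbrain and Schwann cells. Egr2 was at 2.01 to 2.64 TPM in WT, with a median of 2.33, and at 3.67 to 4.76 TPM in HM, with a median of 4.29. The 2 groups did not overlap. The mean rose 1.83 times, by 0.66 ± 0.09 on the log2 scale (adjusted p = 9.6e-05 in limma). HetKO 2 and 5 were at 4.46 and 4.34 TPM, inside the HM range, and the other 4 HetKO samples were at 1.45 to 2.08 TPM. Egr2 was also called higher in HM than in HetKO (log2 difference 0.60 ± 0.21, adjusted p = 0.0391), but the ranges overlapped, and this call was lost in 18 of the 28 alternative settings, with an adjusted p of 0.253 on pair means. EGR3, a further zinc finger factor of the family, was barely present: Egr3 was at 0.00 to 0.07 TPM in WT, 0.02 to 0.24 in HetKO and 0.06 to 0.36 in HM, under the level at which genes were tested.

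Among AP-1 genes, Fos, Fosb and Junb were higher in HM, and Jun was not. FOS has no homodimer of its own and binds DNA as a partner of JUN proteins. Fos was low throughout, at 0.27 to 1.69 TPM in WT (median 0.720), 0.31 to 0.66 in HetKO (median 0.400) and 1.12 to 3.95 in HM (median 2.42). HM and HetKO did not overlap, whereas WT 4, at 1.69 TPM, was above HM 1, at 1.12 TPM. The mean rose by 0.92 ± 0.22 on the log2 scale against WT (adjusted p = 0.00344) and by 1.24 ± 0.19 against HetKO (adjusted p = 0.000464, or 0.0516 on pair means). Fos reached a mean of 1 TPM only through its HM samples, so a difference in it was favoured by the filter. FOSB, its close relative, was at 0.18 to 0.43 TPM in WT, 0.15 to 0.30 in HetKO and 0.53 to 0.86 in HM. The HM samples did not overlap either of the other lines, but Fosb lay under 1 TPM in every sample and was left untested.

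JUNB dimerises with FOS proteins and is a weaker activator than JUN. Junb was at 4.11 to 5.41 TPM in WT, with a median of 5.08, at 3.14 to 4.39 TPM in HetKO, with a median of 3.89, and at 7.27 to 12.4 TPM in HM, with a median of 9.89. HM was above both other lines in every sample. The mean was 2.00 times that of WT (log2 difference 0.85 ± 0.13, adjusted p = 0.000182) and 2.56 times that of HetKO (log2 difference 1.14 ± 0.14, adjusted p = 6.8e-05). Of the tested members other than Egr1, Junb was the only one still called between HM and HetKO on pair means. Its HetKO level was 0.29 below WT on the log2 scale, which did not pass (95% interval -0.50 to -0.08, adjusted p = 0.0704). Unlike Egr1, Junb was not raised in HetKO 2 and 5 (3.69 and 3.68 TPM), and in HM it was lowest in samples 5 and 6, where Egr1 was highest.

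Jun, the founding AP-1 gene, was at 7.87 to 10.9 TPM in WT, 7.90 to 10.95 in HetKO and 8.57 to 12.2 in HM. The groups overlapped throughout. The log2 difference between HM and WT was 0.14 (95% interval -0.08 to 0.36, adjusted p = 0.274) and that between HM and HetKO 0.16 (95% interval -0.09 to 0.40, adjusted p = 0.301). Centring each sample on its median moved the HM against WT difference to 0.32 with an adjusted p of 0.0345. Jun overlaps the antisense gene Junos, and Junb overlaps Prdx2 on the other strand, which averaged 250.5 TPM. The library kit was stranded, but the strand setting of the counting was not given in the sources used here, so reads of such partners cannot be told apart with certainty.

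IER2 is a nuclear protein of the early response. Ier2 was the most abundant of the 10 genes in every line: 23.4 to 27.5 TPM in WT (median 26.7), 21.7 to 40.8 in HetKO (median 26.6) and 41.9 to 59.9 in HM (median 51.4). All 6 HM samples were above all others, although HetKO 2 (40.8) and HetKO 5 (39.9) came close to HM 1 (41.9). The mean rose 2.01 times against WT (log2 difference 0.97 ± 0.09, adjusted p = 5.5e-06) and 1.75 times against HetKO (log2 difference 0.82 ± 0.16, adjusted p = 0.00233, or 0.0956 on pair means).

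DUSP1 is the nuclear phosphatase that switches off p38, JNK and ERK. Dusp1 ran the other way: it was at 17.95 to 19.1 TPM in WT, with a median of 18.5, and at 13.6 to 17.7 TPM in HM, with a median of 15.0. The groups did not overlap, and the mean fell by 0.25 on the log2 scale (standard error 0.0686, adjusted p = 0.00772). The fall was small and ended as a call when samples were centred on their medians (log2 difference -0.08, adjusted p = 0.383), after quantile normalization (-0.09, adjusted p = 0.306) and on pair means (adjusted p = 0.139). In HetKO Dusp1 was at 14.9 to 24.2 TPM, lowest in samples 1 and 4, and was not called against either line. Dusp1 overlaps Ergic1 on the other strand, which averaged 66.6 TPM.

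ATF3 is a bZIP factor made in stressed cells. Atf3 varied more within a line than between lines. It was at 2.29 and 2.61 TPM in WT 1 and 4 and at 7.61 to 14.0 TPM in the other WT samples. HetKO 1 and 4 were at 1.85 and 1.33 TPM, against 10.1 to 13.5 TPM in the other 4, and HM ran from 2.93 to 9.49 TPM. The log2 difference between HM and WT was -0.38 (95% interval -1.29 to 0.52, adjusted p = 0.467), and without WT 1 and 4 it was -0.98 with an adjusted p of 0.0202. That between HM and HetKO was -0.31 (adjusted p = 0.648), and without HetKO 1 and 4 it was -1.09 with an adjusted p of 0.0234.

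Seen together, 7 members other than Egr1 were tested between HM and WT, of which 4 were higher (Egr2, Fos, Junb, Ier2) and 1 lower (Dusp1), where 19.4% of the 14043 genes tested were higher and 32% lower. Fos passed the filter through HM alone, and without it 3 of 6 were higher. The median log2 difference of these 6 was 0.40, against -0.09 over all genes tested. In 3 of the 6 (Egr2, Junb, Ier2) every HM sample was above every WT sample, as in 10.6% of genes tested. HM against HetKO gave 4 of 7 higher and 0 lower, or 3 of 6 higher without Fos, where 14% of 13762 genes were higher and 20.6% lower. In 2 of these 6 (Junb, Ier2) the samples did not overlap, as in 6.23% of genes. The count for HM against HetKO was 1 of 7 on pair means, where 1.37% of genes were higher and 1.66% lower. Between HetKO and WT 0 of 7 members tested, Egr1 among them, were called, where 3.71% of 13999 genes were higher and 6.44% lower. At an unadjusted p under 0.05 only Junb passed in that comparison, and a per-gene unequal-variance test also called 0.

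With no filter on low values, Fosb was called higher in HM than in WT (log2 difference 0.43, adjusted p = 0.000668) and Egr3 too (0.23, adjusted p = 0.0100), where 9.55% of genes were higher. Against HetKO, Fosb was called (0.52, adjusted p = 0.000198) and Egr3 was not (0.14, adjusted p = 0.194), where 7.27% were higher. All these comparisons share samples, so their members' values cannot be read as separate evidence. The share of higher genes depends on the scaling: 37.7% of all calls between HM and WT were higher as deposited, and 61.0% after centring on the median, which moved the median of all genes by 0.18 on the log2 scale (40.4% and 60.9% between HM and HetKO, with a move of 0.12). Egr2, Fos, Junb and Ier2 kept their calls under both scalings between HM and WT, and Egr2 lost its call against HetKO after quantile normalization.

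**Figure D2:**
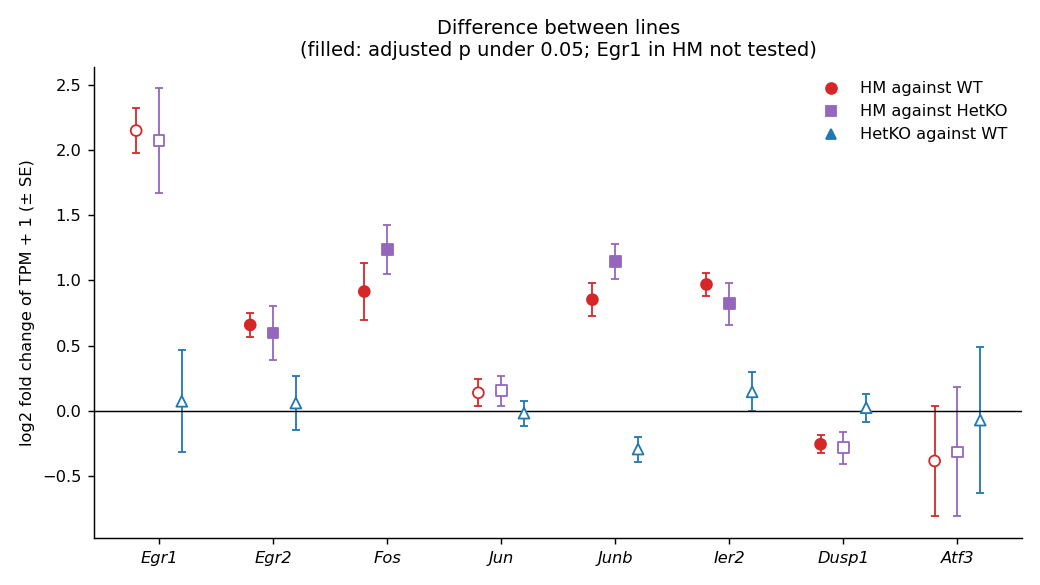
Log2 fold change of TPM + 1 with its standard error (vertical axis) for the 8 members that passed the filter, in HM against WT (circles), HM against HetKO (squares) and HetKO against WT (triangles). Filled marks passed an adjusted p of 0.05, Egr1 in HM was left untested, Fos was under the filter between HetKO and WT, and no HetKO against WT mark was filled.

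Egr1, Egr2 and Ier2 shared the rise in HetKO 2 and 5, where Egr2 was 1.92 and 1.87 times and Ier2 1.57 and 1.53 times the WT mean. Fos, Fosb and Junb did not share it, at 0.377 to 0.951 times the WT mean in those 2 samples. Over the 18 samples the correlation of log2(TPM + 1) with Egr1 was 0.914 for Egr2, 0.937 for Ier2, 0.769 for Junb and 0.755 for Fos. After subtracting each line's mean it was 0.824 for Egr2 and 0.766 for Ier2, but 0.15 for Fos and -0.016 for Junb. Nor did Fos, Fosb and Junb vary together within lines, where their correlations with each other ran from -0.148 to 0.169. Between Dusp1 and Atf3 it was 0.625 after the line means were subtracted. These 18 points share line and near-alike pair and are given as a description.

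**Figure D3:**
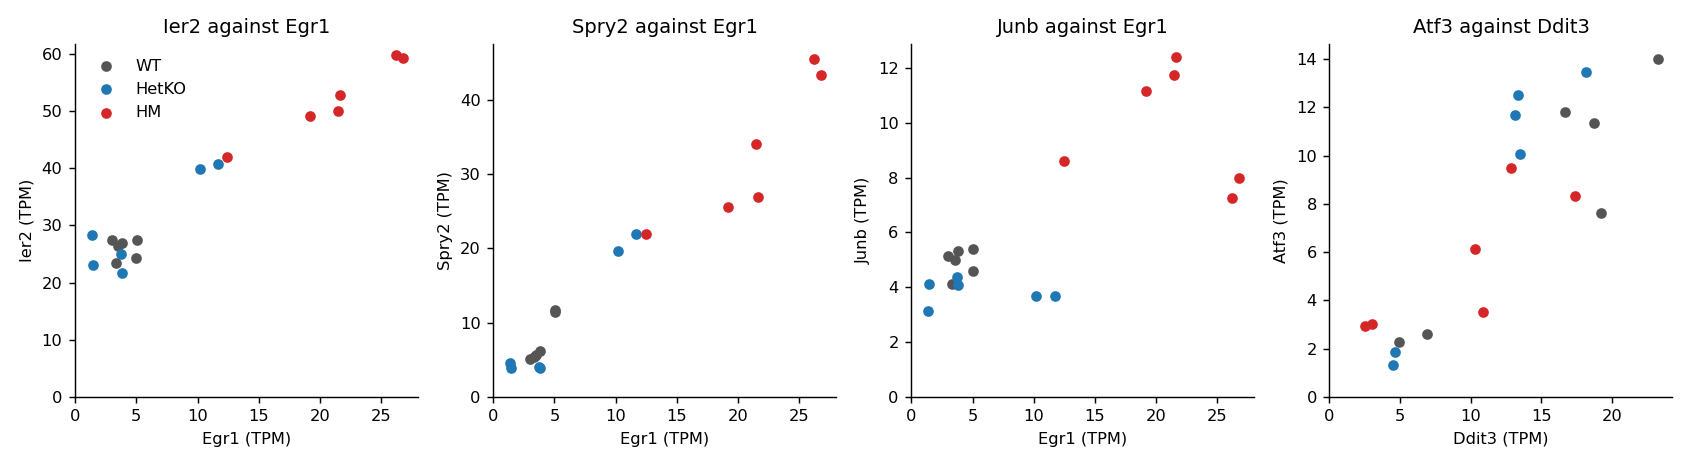
TPM of Ier2, Spry2 and Junb against Egr1, and of Atf3 against Ddit3, a point for each of the 18 samples. Ier2 and Spry2 rose with Egr1 through HetKO 2 and 5 into HM, Junb did not, and Atf3 was low wherever Ddit3 was low.

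The promoters show which control sequences each gene carries close to its start, and the few that bear on the groups above are printed with the motif in capitals. RefSeq windows of GRCm38.p6, from 250 bases before to 50 after a start, matched 7 of the 10 members, all but Egr1, Egr3 and Ier2. A CArG box lay within these windows in Egr2 alone of the 7, at 2 places, against 1.81% of 27025 genes. Egr2 has several annotated starts and so several windows, which gives more room for a match, whereas each other matched member had a single window. Each box begins 72 bases before an annotated Egr2 start, and the distance to other Egr2 starts differs. The full cyclic AMP response element TGACGTCA lay in Dusp1, against 2.03% of genes, and its core TGACG, which the full element contains, in 6 of 7 (all but Jun), against 23.1%. The Egr site GCGNGGGCG, with G or T at N, lay in Fosb, against 3.93%, and the AP-1 site TGANTCA, with C or G at N, lay in 0 of 7, against 5.95%. The GC box GGGCGG lay in 6 of 7, against 38.2%. Both strands were searched. Elements more than 250 bases before a start lie outside the windows, so a missing match does not show that a gene lacks the element.
Egr2 CArG box, chr10:67537485-67537512, plus strand: ggatcttctCCTTTTTTGGaaagtctcg
Egr2 CArG box, chr10:67537788-67537815, plus strand: ttcctcagtCCATATATGGgcagcgacg
Dusp1 cyclic AMP response element, chr17:26508599-26508624, minus strand: tagggcgggTGACGTCAccgcccggt
Fos core element, chr12:85473815-85473837, plus strand: tccgcccagTGACGtaggaagtc
Junb core element, chr8:84978841-84978863, minus strand: tcctgacagTGACGcgagccgcc
Fosb Egr site, chr7:19310078-19310104, minus strand: gacgcaagcGCGGGGGCGggtcccgga

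A match in these letters is a description of the window and no measure of binding. The core TGACG was present both in genes that were higher in HM (Egr2, Fos, Junb) and in Dusp1, which was lower, and in Atf3, which was not called.

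The 3′ UTRs were searched for AU-rich elements and for matches to the seeds, bases 2 to 8, of 10 mature miRNAs: 6 5p strands that depend on RNase IIIb and 4 3p passenger strands. The longest annotated 3′ UTR per gene was used, and 21024 such UTRs gave the background. The AU-rich nonamer UUAUUUAUU lay in Fos, with 1 site, and in Dusp1, with 2, against 7.66% of all UTRs, and the pentamer AUUUA in 9 of 10 members, all but Ier2, against 65.2%. These shares depend on UTR length. Among UTRs about as long as the member's own, the pentamer share ran from 49.3% for Junb to 94.7% for Egr3, with 80.4% for Egr1. Egr1 held no match to any of the 10 seeds. Egr2 held a match to the seed shared by miR-17-5p and miR-20b-5p (11.8% of all UTRs) and another to miR-7a-1-3p (19.3%), so its 3′ UTR carries a site of each strand class. Fos held a miR-7a-5p match (11.9%), Jun a match to the seed of miR-17-3p and miR-20b-3p (13.7%), and Atf3 a match to both miR-17 strands. Egr3 held matches to miR-7a-5p, to miR-17-5p and to the seed of miR-15b-5p and miR-16-5p (20.3%, or 35.6% of UTRs about as long). Junb, Ier2, Fosb and Dusp1 held none. The mature strands are shown with the seed in capitals and the sites with the match in capitals, as sense-strand DNA of GRCm38.
miR-17-5p: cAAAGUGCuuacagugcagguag
miR-20b-5p: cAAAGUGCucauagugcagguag
miR-7a-5p: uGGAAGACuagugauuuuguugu
miR-7a-1-3p: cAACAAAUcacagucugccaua
miR-17-3p: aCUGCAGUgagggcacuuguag
Egr2 site for miR-17-5p and miR-20b-5p, chr10:67541399-67541423, plus strand: actgatgtgGCACTTTaatggcttg
Egr2 site for miR-7a-1-3p, chr10:67542047-67542071, plus strand: ctgccgctgATTTGTTtggttatta
Fos site for miR-7a-5p, chr12:85476527-85476551, plus strand: gagaaacacGTCTTCCctcgaaggt
Atf3 site for miR-17-5p and miR-20b-5p, chr1:191170515-191170539, minus strand: atgttaatgGCACTTTtgtcttgta
Jun site for miR-17-3p and miR-20b-3p, chr4:95049799-95049823, minus strand: ccaggctagACTGCAGatgaactcc

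Of the 4 members with a 5p seed match, Egr2 and Fos were called higher in HM than in WT, Atf3 was not called and Egr3 was under the filter. Fos passed the filter through HM alone. Among the members with no 5p match, Junb and Ier2 were called higher, Dusp1 lower and Jun was not called. Fosb, also without a 5p match, was under the filter, and Egr1 was not tested. The part of these sites in the levels was not tested.

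Genes that act around the members were taken from lists chosen with earlier results of these data known. NAB1 and NAB2 bind EGR proteins and repress them, and Nab2 is itself an EGR target. Nab2 was at 7.87 to 10.8 TPM in WT and 15.6 to 23.4 TPM in HM, without overlap (log2 difference 1.02 ± 0.10, adjusted p = 1.2e-05). It too was at 23.2 and 21.2 TPM in HetKO 2 and 5, against 9.33 to 10.8 TPM in the other HetKO samples, and was not called between HM and HetKO (adjusted p = 0.0578). Nab1 rose by 0.28 against WT (adjusted p = 0.0137) and by 0.53 against HetKO (adjusted p = 0.00180), and both calls were lost on pair means (adjusted p = 0.153 and 0.119).

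ERK feedback genes, which encode phosphatases and inhibitors that the ERK pathway itself induces, were mostly higher in HM: of 10 tested, 8 rose and 0 fell against WT, where 19.4% of all genes were higher and 32% lower, and 8 rose and 0 fell against HetKO, where it was 14% and 20.6%. Their median log2 difference was 0.79 and 0.66, against -0.09 and -0.05 over all genes. On pair means 7 of 10 rose against WT, where 8.25% of all genes did, and 2 of 10, Dusp4 and Dusp6, against HetKO, where 1.37% did. Without HetKO 2 and 5 it was 9 of 11 against HetKO, where 18.6% of all genes were higher. The gene added there, Dusp2, was at 0.16 to 0.54 TPM in HetKO and averaged 1.56 TPM in HM. It passed the filter through HM alone, so its call was favoured by the filter. The 3 largest rises against WT were Spry2, an inhibitor of receptor tyrosine kinase signalling, from a median of 5.93 to 30.5 TPM (log2 difference 2.00 ± 0.24, adjusted p = 3.3e-05), its relative Spry4, from 4.28 to 19.2 TPM (1.99 ± 0.23, adjusted p = 3.3e-05), and the ERK phosphatase Dusp6, from 15.7 to 61.9 TPM (1.84 ± 0.22, adjusted p = 3.5e-05). Spry2 and Spry4 were also high in HetKO 2 and 5, at 22.0 and 19.7 and at 20.2 and 17.9 TPM, against 3.90 to 4.53 and 2.00 to 4.6 TPM in the other HetKO samples. Dusp4 did not share this clearly, at 6.91 and 6.63 TPM against 3.97 to 6.68. Nor was the rise particular to this list. In HetKO 2 and 5 the heat shock gene Hsph1 was at 110.1 and 106.5 TPM, against 50.9 to 58.2 in the others. Myc was at 34.5 and 33.1 TPM there, against 7.27 to 12.7, and Nras at 168.5 and 167.6 TPM, against 101.3 to 114.0. Between HetKO and WT 0 of 10 rose and 2 fell, Dusp4 (log2 difference -0.84, adjusted p = 0.0322) and Spry1 (-0.31, adjusted p = 0.0442). Over all genes 3.71% were higher and 6.44% lower. On pair means 0 genes of any list were called between HetKO and WT, where 0.0571% of all genes were higher and 0.186% lower.

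**Figure D4:**
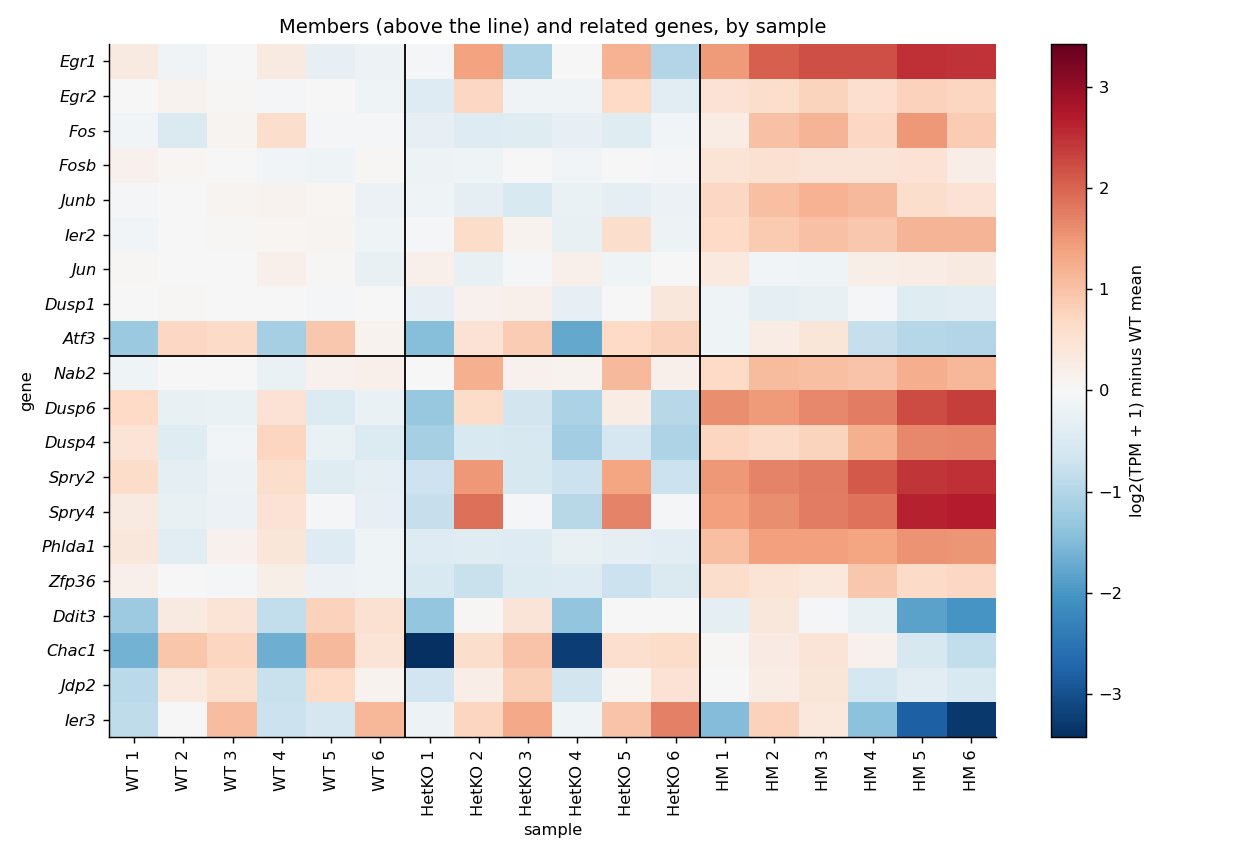
Log2(TPM + 1) minus the WT mean, by colour, for 9 members (above the line, Egr3 left out) and 11 related genes in the 18 samples. Egr1, Spry2 and Spry4 were red in HetKO 2 and 5 and throughout HM. Atf3, Ddit3 and Chac1 were blue in WT 1 and 4, in HetKO 1 and 4 and in HM 5 and 6.

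Upstream kinases and factors went in both directions, in shares near those of all genes. Of 24 tested between HM and WT, 5 rose and 8 fell, where 19.4% of all genes were higher and 32% lower, with a median of 0.06 on the log2 scale. After centring on the median 13 rose and 3 fell (32.1% and 20.5% of all genes), so the direction for this list depends on the scaling. On pair means 2 rose and 4 fell (8.25% and 15.4% of all genes). The largest rises were Hras (log2 difference 0.62), Nras (0.52, adjusted p = 0.0841 on pair means) and the p38 gene Mapk14 (0.50), and the largest falls Mapk3, which encodes ERK1 (-0.77, adjusted p = 2.8e-05), the kinase gene Rps6ka5 (-0.54, adjusted p = 0.0991 on pair means) and Map2k1, which encodes MEK1 (-0.50). Srf, the factor at serum response elements, was at 40.8 to 48.9 TPM in WT and 45.0 to 59.9 TPM in HM and was not called (log2 difference 0.18, adjusted p = 0.0756), whereas it was called against HetKO (0.29, adjusted p = 0.0301, or 0.248 on pair means). Between HM and HetKO 2 of 24 rose and 3 fell, where 14% of all genes were higher and 20.6% lower. On pair means 0 were called there, where 1.37% of all genes were higher and 1.66% lower. Between HetKO and WT 1 rose and 1 fell, where 3.71% of all genes were higher and 6.44% lower.

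Of 27 further immediate early and primary response genes, 22 were tested between HM and WT, and 6 rose and 4 fell, where 19.4% of all genes were higher and 32% lower, with a median of 0.04. The 3 largest rises were Phlda1, a growth factor response gene (log2 difference 1.37, adjusted p = 4.4e-05), Csrnp1 (0.91, adjusted p = 0.00623) and the zinc finger gene Klf2 (0.68, adjusted p = 0.00188). The 3 largest falls were the TGF-β response gene Klf10 (-1.24, adjusted p = 0.000167), the small Maf factor Maff (-0.79, adjusted p = 0.000200) and the growth arrest gene Gadd45b (-0.74, adjusted p = 0.0203). On pair means 2 rose and 2 fell, without Csrnp1 (adjusted p = 0.0664), Klf2 (0.0503) and Gadd45b (0.128), and after centring on the median 9 rose and 2 fell. Over all genes 8.25% were higher and 15.4% lower on pair means, and 32.1% and 20.5% after centring. Myc was at 10.3 to 27.9 TPM in WT and 15.1 to 49.9 TPM in HM and was not called (adjusted p = 0.151). Between HM and HetKO 8 rose and 4 fell of 22, where 14% of all genes were higher and 20.6% lower. On pair means of these lines 3 rose and 0 fell, where 1.37% of all genes were higher and 1.66% lower. Of the 8, Phlda1 and Ccn2 passed the filter through HM alone, and without them 6 of 20 rose. Between HetKO and WT 0 rose and 5 fell of 21, where 3.71% of all genes were higher and 6.44% lower.

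Among AP-1 partner genes, 6 of 9 were tested between HM and WT, where 19.4% of all genes were higher and 32% lower. Batf3 rose (log2 difference 0.73, adjusted p = 0.000520), and Atf2 (-0.76, adjusted p = 1.3e-06) and Atf7 (-1.27, adjusted p = 0.000316) fell. The repressor gene Jdp2 was not called (-0.14, adjusted p = 0.722). Against HetKO 1 rose and 2 fell in HM, where 14% of all genes were higher and 20.6% lower. On pair means 0 rose and 1 fell, where 1.37% of all genes were higher and 1.66% lower. Between HetKO and WT 0 of 6 were called, where 3.71% of all genes were higher and 6.44% lower.

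Integrated stress response genes varied with Atf3 from sample to sample. Of 8 tested between HM and WT, 2 rose, Atf5 (log2 difference 0.82, adjusted p = 1.6e-05) and Atf4 (0.39, adjusted p = 0.0212, or 0.139 on pair means), and 0 fell. Over all genes 19.4% were higher and 32% lower, so 2 of 8 lay near the share of higher genes. Over the 18 samples, after subtracting each line's mean, the correlation of these 8 genes with Atf3 ran from 0.799 for Atf5 to 0.964 for Trib3, a pseudokinase gene, and Jdp2, named after its values were seen, was at 0.946. Without that subtraction Atf5 was at 0.155 and Atf4 at 0.674, and the highest of the 8 was Trib3 at 0.949. Chac1, which encodes a glutathione-degrading enzyme and was also named after its values were seen, was at 12.2 and 11.7 TPM in WT 1 and 4 against 55.5 to 86.2 TPM in the other WT samples, and at 2.77 and 3.31 TPM in HetKO 1 and 4 against 59.5 to 79.0 TPM in the others. In WT and HetKO the same samples were those with low Atf3. In HM 4, 5 and 6 Atf3 was also low, at 2.93 to 3.53 TPM, and Chac1 was at 44.2, 26.5 and 21.7 TPM. In HM 1, 2 and 3 Atf3 was at 6.11 to 9.49 TPM and Chac1 at 40.8 to 54.3 TPM, so HM 4 did not follow this pattern. Between HM and HetKO 1 of the 8 rose and 1 fell, where 14% of all genes were higher and 20.6% lower. On pair means 0 were called there, where 1.37% of all genes were higher and 1.66% lower. Between HetKO and WT 0 of 8 were called, where 3.71% of all genes were higher and 6.44% lower.

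Heat shock genes, a second stress class, rose in 5 of 7 tested and fell in 1 between HM and WT, where 19.4% of all genes were higher and 32% lower. On pair means 3 rose, where 8.25% of all genes did, and 0 fell. The largest rises were Hsph1 (log2 difference 1.23, adjusted p = 2.8e-05), Hspd1 (0.90, adjusted p = 0.000129) and Hspa8 (0.67, adjusted p = 0.000866). The fall, of Hspa1b (-1.07, adjusted p = 0.0277, or 0.160 on pair means), was in a gene that passed the filter through WT 1 and 4 (4.32 and 5.38 TPM), against 0.49 to 0.94 TPM in the other WT samples and 0.00 to 0.93 in HM. Hspa1a and Hspa1b are near-identical copies that share reads, so this value is uncertain. Against HetKO 5 of 6 rose and 0 fell, where 14% of all genes were higher and 20.6% lower. On pair means 0 of 6 were called there, where 1.37% of all genes were higher and 1.66% lower. Between HetKO and WT 0 of 7 rose and 2 fell, where 3.71% of all genes were higher and 6.44% lower.

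Markers of other cell types moved in both directions in the samples with raised Egr1. The summed level of 12 differentiation markers was 44.2 to 49.3 TPM in WT, 44.5 to 126.1 in HetKO and 45.4 to 74.4 in HM. In WT 4, in HetKO 6 and in HM 6 of the 12 had a mean under 1 TPM, and none of the 12 was at 0 in all samples of a line. The mesoderm gene T was at 110.5 and 66.2 TPM in HetKO 2 and 5, against 0.94 to 9.13 TPM in the other HetKO samples, at 3.45 to 8.60 TPM in WT and at 10.9 to 41.9 TPM in HM. Thy1, a surface protein gene of fibroblasts and neurons, was at 6.25 and 6.45 TPM in HetKO 2 and 5, against 24.1 to 27.1 TPM in the others, and the collagen gene Col1a2 at 1.64 and 2.04 TPM, against 6.43 to 8.37. Of the 8 markers tested between HM and WT, 2 rose (T, Mixl1) and 4 fell (Gata6, Tbx6, Col1a2, Thy1), where 19.4% of all genes were higher and 32% lower. Mixl1 passed the filter through HM alone and Gata6 and Tbx6 through WT alone, and without them 1 of 5 rose and 2 fell. On pair means 1 of the 8 rose and 2 fell, where 8.25% of all genes were higher and 15.4% lower. The fibroblast gene Dcn averaged 5.07 TPM in HM, 2.385 in WT and 0.54 in HetKO, and was not called between HM and WT (adjusted p = 0.191). Against HetKO 1 of 8 rose in HM, Dcn (log2 difference 1.82, adjusted p = 0.00603), which passed the filter through HM alone. There 2 fell, where 14% of all genes were higher and 20.6% lower. On pair means 0 were called, where it was 1.37% and 1.66%. The part of these markers in the Egr1, Egr2 and Ier2 levels was not tested. The embryonal carcinoma marker sum was 3135 to 3556 TPM in WT, 2970 to 3588 in HetKO and 3371 to 3871 in HM. Of these 8 markers 3 were higher and 2 lower (Nanog and Sall4) in HM than in WT, where 19.4% of all genes were higher and 32% lower. On pair means 2 of them were higher and 1 lower. Against HetKO 3 were higher and 2 lower in HM, and 1 and 1 on pair means. Sall4 was lowest in HM 1 and 4, at 1.24 and 0.63 TPM.

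Genes most like Egr1 were ranked by correlation of log2(TPM + 1) among 13955 genes. Over the 18 samples the 5 highest were Hnrnpc (0.975), Ywhab (0.972), Polr2l (0.971), Ccne1 (0.970) and Sde2 (0.969). Hnrnpc encodes an RNA-binding protein, Ywhab a 14-3-3 protein, Polr2l a subunit of the RNA polymerases and Ccne1 cyclin E1. Ccne1 was at 54.6 to 75.3 TPM in WT, 50.5 to 104.5 in HetKO and 120.2 to 228.0 in HM. After subtracting the line means the 5 highest were Vrtn (0.977), Thap12 (0.966), Eif4g1 (0.959), E2f3 (0.958) and Srsf3 (0.957), and 0 genes were in both sets. Spry2, at 0.962 over the 18 samples and rank 15, stood above every member in this order, of which Ier2 had rank 108 and Egr2 rank 230. Genes of other lists ranked close to it, such as Hsph1 (0.958, rank 25) and Hras (0.934, rank 125). Other ERK feedback genes ranked far lower, such as Dusp4 (rank 1203) and Spry1 (rank 5107). After subtracting the line means Spry2 was at 0.881, below the heat shock genes Hspd1 (0.924) and Hsph1 (0.905).

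The genes beside Egr1 were called in shares near those of all genes. Within 1 Mb of its start 35 genes were tested between HM and WT, with a median log2 difference of -0.04. Of these, 5 were higher and 11 lower, where 19.4% of all genes were higher and 32% lower. Between HM and HetKO 32 were tested, with a median of -0.03. Here 3 were higher and 7 lower, where 14% of all genes were higher and 20.6% lower. None of them reached the Egr1 difference of 2.15 and 2.07, and the highest were 0.93 and 1.73. Egr1 was picked for that difference, so the contrast carries no test. The second of these was Sil1, which was lower in HetKO than in WT (log2 difference -3.09, adjusted p = 0.000269), the largest change among the neighbours. Between HetKO and WT the median over 34 genes was -0.08, with 1 higher and 3 lower, where 3.71% of all genes were higher and 6.44% lower.

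**Figure D5:**
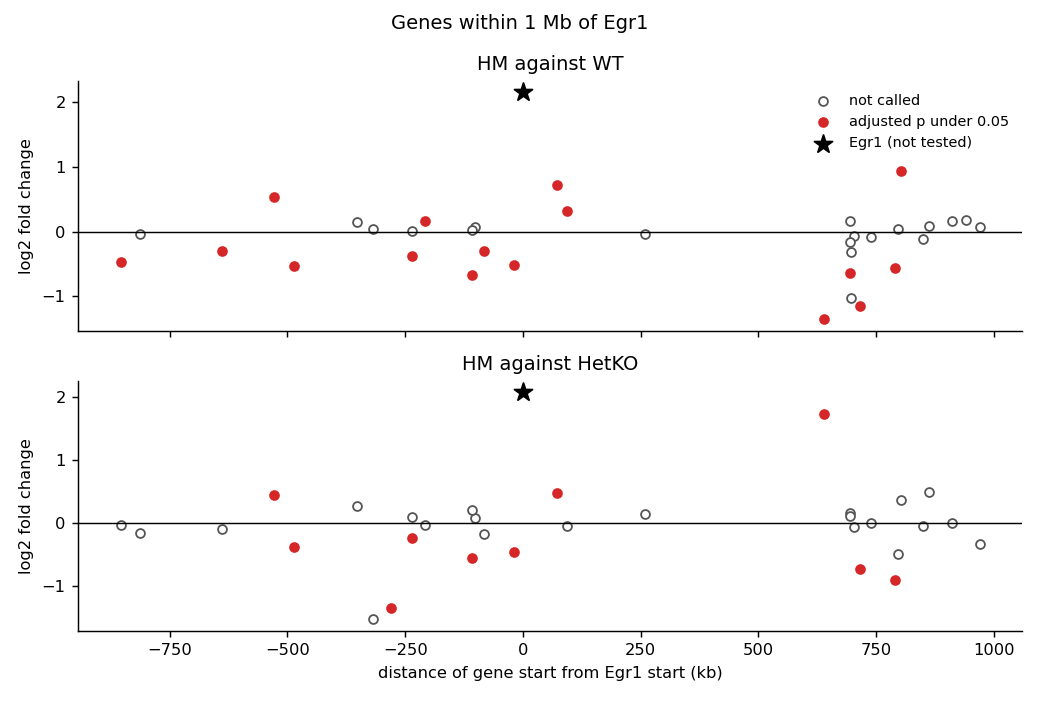
Log2 fold change of genes within 1 Mb of Egr1 (vertical axis) against the distance of their start from the Egr1 start in kb, for HM against WT and HM against HetKO, with Egr1 as a star. Filled points passed an adjusted p of 0.05 and lay both above and below 0.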

How the data were processed

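The authors merged read pairs with BBMerge and quantified genes with RSEM, and deposited TPM values rounded to 2 decimals for 18 P19 samples and 55450 genes. The submitters' processing notes also name cutadapt, STAR and mm10. The strand setting was not given in the sources used here. TPM keeps no sequencing depth, so no counting intervals or detection limits were set, and precision rests on the spread between samples. Groups were taken from the genotype labels. All 55450 identifiers matched GENCODE vM21 of GRCm38. Differences were fitted with limma 3.58.1 in R 4.3.3 (lmFit, eBayes with trend) on log2(TPM + 1) for every gene averaging 1 TPM or more in the 12 samples compared, with Benjamini-Hochberg adjustment over all genes tested. The fit was tested on simulated data. Other summaries used Python with numpy and pandas. Members and lists were chosen with earlier results of these data known. All 10 members were named, and from each list the 3 largest called rises and falls between HM and WT, with Nab1, Nab2, Srf and the 5 genes most like Egr1. Genes named outside this rule (Dusp4, Spry1, Myc, Jdp2, Ddit3, Chac1, Trib3, Ccn2, Sil1, Sall4, Nanog, Pou5f1, Sox2 and the markers of other cell types) were chosen after their values were seen. Promoter and miRNA sequences are from RefSeq (GRCm38.p6). Alternatives changed the pseudocount, filter, scaling, test, samples and pairing.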

Additional observations from a re-analysis of the deposited data

Results flagged for a closer look

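Of 30 member and line groups of 6 samples, 3 had a highest or lowest sample whose gap to its nearest neighbour was over 0.625 of the whole range, where chance gives about 1.5. Egr3 was at 0.07 TPM in WT replicate 1, with a gap of 0.714 of the range, and the next WT sample was at 0.02 TPM. Egr3 was at 0.24 TPM in HetKO replicate 3, with a gap of 0.636 of the range above the next at 0.10 TPM. Fosb was at 0.53 TPM in HM replicate 6, the lowest, with a gap of 0.697 of the range below the next at 0.76 TPM. All 3 lie under 1 TPM, in genes that were not tested.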

How the results depend on the processing

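Between HM and WT, 4 to 6 of the 7 members other than Egr1 were called in either direction under all 28 alternatives. Over all genes 7220 of 14043 were called in the main fit. Between HM and HetKO 3 to 5 of 7 members were called, except on the means of alike pairs, where it was 1. Over all genes 4765 of 13762 were called in that main fit and 417 on pair means. Fos, counted in both, passed the filter through HM alone. Between HetKO and WT 0 members were called throughout, where 1421 of 13999 genes were called in the main fit. Leaving out a replicate gave 5 of 7 between HM and WT, 3 to 4 between HM and HetKO and 0 between HetKO and WT. The Egr1 difference stayed at 2.08 to 2.29 between HM and WT and at 1.84 to 2.33 between HM and HetKO without 1 replicate, and over all 28 alternatives at 1.98 to 2.38 and at 1.52 (without HetKO 3 and 6) to 2.68 (without HetKO 2 and 5). Atf3 changed sign between HM and WT without WT 2 and 5 (0.024) and between HM and HetKO without HetKO 2 and 5 (0.014) or 3 and 6 (0.13). Between HetKO and WT, where no member was called, signs changed as follows. Without 1 replicate Atf3 ran from -0.32 to 0.27, Egr1 from -0.18 to 0.30, Egr2 from -0.069 to 0.16, Jun from -0.065 to 0.030 and Dusp1 from -0.044 to 0.090. Centring on the median gave 0.039 for Jun, and quantile normalization 0.065 for Jun and 0.043 for Atf3. Without HetKO 2 and 5 the values were -0.53 for Egr1, -0.26 for Egr2, 0.074 for Jun, -0.087 for Ier2 and -0.0060 for Dusp1. Other pairs gave 0.70 for Atf3 without HetKO 1 and 4, -0.10 for Dusp1 without HetKO 3 and 6, 0.037 for Jun without WT 1 and 4, -0.025 for Egr1 and 0.34 for Atf3 without WT 2 and 5, and 0.12 for Atf3 without WT 3 and 6. The cause was not tested.

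Replicate numbers were not taken as pairs: the correlation of same-numbered samples' deviations averaged 0.003, 0.062 and 0.019 in HM against WT, HetKO against WT and HM against HetKO, and not every pair was above 0.1. With the replicate number as a block, 5, 0 and 4 members were called, as without it. The block left 6889 of 14043, 1206 of 13999 and 4200 of 13762 genes called. Over all genes, the calls in HetKO against WT went from 1421 to 34 on pair means, 852 with the unequal-variance test, 666 at a 1.5-fold limit, 2508 without HetKO 3 and 6, 663 without WT 2 and 5 and 812 without WT 3 and 6. In HM against WT they went from 7220 to 3316 on pair means and 3008 at the 1.5-fold limit. In HM against HetKO they went from 4765 to 417 and 2099, and to 2785 without HM 5 and 6 and 2873 without HetKO 3 and 6. Other settings stayed within 1.5 times. The list counts on pair means, after centring and without HetKO 2 and 5 were added after the data were seen. TPM keeps no depth, so the counting error of low genes such as Egr3, Fos and Fosb is unknown.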
